A study of Homo sapiens with 3 samples.

Results

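SESN2 and DDIT4 encode stress-induced inhibitors of mTORC1, the kinase complex that drives protein synthesis and cell growth, and both genes were followed across 3 arrays of MDA-MB-231 cells. This established human line comes from a triple-negative breast cancer. The members were the probe sets named SESN2 or DDIT4 in the platform annotation, which gave 1 probe set for each gene (16661544 and 16705961), so 2 of the 14884 named genes are described. The cultures received 10 µM Mt-CFX, 10 µM CFX, or 1% DMSO as the vehicle control, each for 72 h. Ciprofloxacin, the fluoroquinolone antibiotic in the title of the series, inhibits bacterial gyrase. For Mt-CFX the labels give this code name and no structure. A DMSO content is given for the control alone, so an effect of the compounds and an effect of DMSO cannot be told apart. Each group was 1 array of 1 cell line, so there is no replicate error and no test was possible, and every difference below is a description of these arrays. The genes were also chosen with these differences in view.

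The values are log2 expression values, on which a difference of 1 is a 2-fold difference. Differences were read against 8868 protein-coding genes whose highest value was at least 3.89 log2, the median over all probe sets, called the floor here. Of these genes, 45.3% had equal values on the 3 arrays, and the median difference over all of them was 0 in each comparison. Among genes that mark this line, the receptor kinase gene AXL stood at 10.86 with Mt-CFX, 10.93 with CFX and 10.97 with DMSO, and VIM at 9.17 and KRT18 at 8.36 on each array at the probe sets used. CD44 stood at 7.31 with Mt-CFX, 7.65 with CFX and 7.65 with DMSO, and S100A4 lay close to the floor, at 4.30 with Mt-CFX, 3.96 with CFX and 4.24 with DMSO. The progesterone receptor gene PGR, absent by definition from triple-negative tumours, was below the floor at 2.39 on each array. Of the estrogen receptor and luminal or epithelial genes, ESR1 lay near the floor, at 3.81 with Mt-CFX, 3.92 with CFX and 3.81 with DMSO, while FOXA1, GATA3 and EPCAM were above it. FOXA1 at 4.36 and GATA3 at 5.52 were equal on the 3 arrays, and other genes had exactly these values. Whether they show transcript of FOXA1 and GATA3 was not tested. Of 8 markers of other cell types 2 had a named probe set: the endothelial gene PECAM1 was below the floor, and CD68, a macrophage marker, stood at 9.13 with Mt-CFX, 9.27 with CFX and 9.37 with DMSO. The part of other cells in the results was not tested.

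As background, mTORC1 is switched on at the lysosome when amino acids and growth factors are plentiful. Sestrin-2, the product of SESN2, is a leucine sensor: without leucine it binds the GATOR2 complex, which frees GATOR1 to switch off the Rag GTPases that bring mTORC1 to the lysosome. The product of DDIT4, also called REDD1, acts on the growth factor arm, where it favours the TSC complex, the brake on the small GTPase RHEB that activates mTORC1. Transcription of both genes is known to respond to ATF4, the transcription factor of the integrated stress response. SESN2 is also a target of NRF2, and DDIT4 of the hypoxia-inducible factors and of the glucocorticoid receptor.

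The bases just upstream of both genes are shown because the 2 genes were higher together on the Mt-CFX array. They are the 250 bases before the RefSeq gene start in GRCh38.p14, 5′ to 3′, at chr1:28259268-28259517 on the plus strand for SESN2 and chr10:72273674-72273923 on the plus strand for DDIT4. Capitals mark ATTGG, which is CCAAT on the other strand, and ACGTG, the core of the hypoxia response element.
SESN2: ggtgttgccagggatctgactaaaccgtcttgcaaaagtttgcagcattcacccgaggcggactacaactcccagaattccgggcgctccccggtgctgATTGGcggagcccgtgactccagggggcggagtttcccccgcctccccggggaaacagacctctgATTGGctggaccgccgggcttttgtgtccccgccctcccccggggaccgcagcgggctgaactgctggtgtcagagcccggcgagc
DDIT4: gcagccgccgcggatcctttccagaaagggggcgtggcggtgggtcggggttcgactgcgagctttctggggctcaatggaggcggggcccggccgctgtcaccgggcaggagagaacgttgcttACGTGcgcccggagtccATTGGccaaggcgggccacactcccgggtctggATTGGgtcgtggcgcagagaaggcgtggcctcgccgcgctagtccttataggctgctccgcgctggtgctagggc
Both windows are rich in G and C, at 65.6% in SESN2 and 68.8% in DDIT4, against a median of 58% over the same window of 27305 RefSeq promoters. Each holds 2 copies of ATTGG, whose first bases lie at positions −151 and −86 from the start in SESN2 and at −108 and −75 in DDIT4. CCAAT, the sequence bound by NF-Y, was searched for on both strands after the windows had been seen, and 10.0% of all promoters hold at least 2 copies. ACGTG occurs 1 time in the DDIT4 window, on the plus strand at position −125, and on neither strand in the SESN2 window. Of all promoters 18.7% hold it. Also searched on both strands were TGATGNAA, the core of the C/EBP-ATF response element to which ATF4 binds, TGACGT, part of the cAMP response element, and TGACNNNGC, the core of the antioxidant response element. AGAACA, part of the glucocorticoid response element, and TATAAA, the core of the TATA box, were searched as well. These letters are in neither window, and 3.19%, 7.42%, 11.0%, 12.4% and 11.1% of all promoters hold them, in the order given. Bases outside the windows and other spellings of these elements were not searched. TGACGT followed by G would overlap ACGTG, which did not occur here.

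SESN2 stood at 7.97 log2 with Mt-CFX, 6.15 with CFX and 6.32 with DMSO. It was high on the Mt-CFX array, while the CFX and DMSO arrays lay close to each other with CFX the lowest. The difference of Mt-CFX from DMSO was 1.66 log2, a 3.16-fold higher value. CFX differed from DMSO by −0.17 log2, which is 0.891 of the DMSO level. Set directly against CFX at the same dose and time, Mt-CFX gave a value higher by 1.82 log2, or 3.54-fold.

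DDIT4 stood at 9.37 log2 with Mt-CFX, 7.10 with CFX and 6.79 with DMSO. Here too the Mt-CFX array stood well above the others, but the CFX array was above the DMSO array. The difference of Mt-CFX from DMSO was 2.58 log2, a 5.96-fold higher value, and that of CFX from DMSO was 0.30 log2, or 1.24-fold. Between the compounds, Mt-CFX was higher by 2.27 log2, or 4.83-fold. The order of the conditions thus differed between the genes: Mt-CFX, DMSO, CFX from high to low in SESN2, and Mt-CFX, CFX, DMSO in DDIT4. With 1 array each, whether the CFX and DMSO levels of either gene differ beyond the spread of repeats cannot be said, and no interval of the difference between the compounds can be given.

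**Figure D1:**
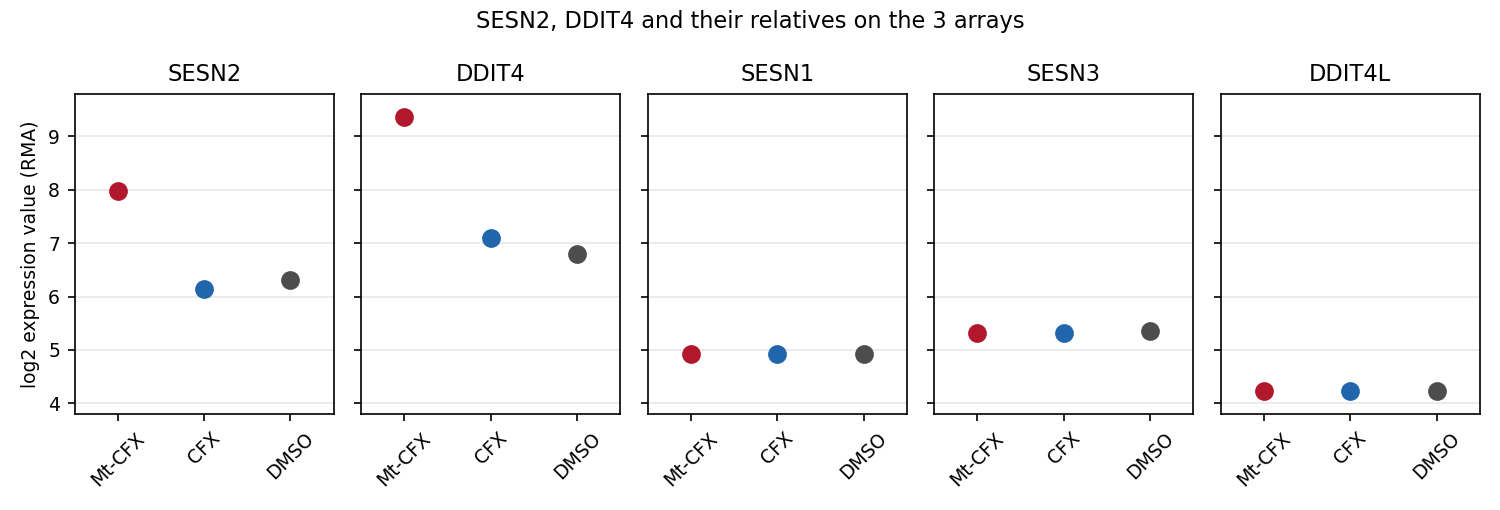
Log2 expression values (y axis) of SESN2, DDIT4 and the related genes SESN1, SESN3 and DDIT4L on the Mt-CFX, CFX and DMSO arrays (x axis), 1 point per array. SESN2 (7.97) and DDIT4 (9.37) are highest with Mt-CFX, while the points of the related genes lie level; heights are not comparable between probe sets.

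The gap between the genes was also one of size. DDIT4 exceeded SESN2 by 0.92 log2 in the difference of Mt-CFX from DMSO, by 0.47 in that of CFX from DMSO and by 0.45 in that of Mt-CFX from CFX. Both members were among the 27 genes at least 2-fold higher with Mt-CFX than with DMSO, which are 0.304% of the genes compared. They were also among the 23 genes, 0.259%, at least 2-fold higher with Mt-CFX than with CFX. Neither was among the 2 genes, 0.0226%, that were 2-fold higher with CFX than with DMSO, and 0 genes were 2-fold lower in that comparison. At least 2-fold lower with Mt-CFX were 23 of the 8868 genes against DMSO and 11 against CFX. Since these values led to the choice of the genes, nothing is read from the counts.

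Ordered by the difference of Mt-CFX from DMSO, DDIT4 came at rank 3 and SESN2 at rank 10 of 8868 genes. Above DDIT4 stood EGR1, an immediate early transcription factor gene, at 3.14 log2, with 1.64 at its other probe set, and GDF15, a secreted stress cytokine gene, at 2.82. Between DDIT4 and SESN2 came TRIB3 at 1.97, SLFN5 at 1.96, CTH at 1.89, ANKFN1 at 1.87, KDM7A at 1.77 and DDIT3 at 1.69, and the next gene below SESN2 was STK32A at 1.41. In the direct comparison of Mt-CFX with CFX, which uses the same Mt-CFX array, DDIT4 stood at rank 3 and SESN2 at rank 5, behind TRIB3 at 1.87. By the difference of CFX from DMSO the genes lay toward opposite ends, DDIT4 at rank 97 from the highest and SESN2 at rank 277 from the lowest. That difference of CFX from DMSO exceeded those of 98.9% of genes for DDIT4 and of 3.11% of genes for SESN2. The comparisons with DMSO share the control array, so they are not independent of each other.

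Among the relatives of the 2 genes no such difference was seen. SESN1, another sestrin, had the value 4.93 on all 3 arrays. SESN3, the sestrin known as a FOXO target, stood at 5.32 with Mt-CFX, 5.32 with CFX and 5.36 with DMSO, a difference of −0.04 log2 for either compound. DDIT4L, the paralog of DDIT4 also known as REDD2, had the value 4.24 on each array. Exactly equal values of this kind need care. The DDIT4L value was shared, to all 5 deposited decimals, by 370 other probe sets on the Mt-CFX array, 366 on the CFX array and 362 on the DMSO array. The SESN1 value was shared by 11, 10 and 6 other probe sets on those arrays. The SESN2 and SESN3 values were shared by 0 others on any array. The DDIT4 value was shared by 2 others with Mt-CFX, 17 with CFX and 0 with DMSO. Whether an equal value of SESN1 or DDIT4L shows an equal amount of its transcript was not tested.

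Among other mTORC1 pathway genes, TRIB3 was higher with Mt-CFX by a margin between those of SESN2 and DDIT4. MITF was lower by more than 1.5-fold, with a Mt-CFX value close to the floor. Of 24 further genes whose products restrain mTORC1, 17 were compared. With Mt-CFX against DMSO 3 of them were higher, 2 were lower and 12 were equal, the median being 0.00 and the mean 0.14 log2, where 23.9% of all genes compared were higher, 23.2% lower and 52.9% equal. The highest was TRIB3, a pseudokinase reported to bind AKT, which stood at 7.73 with Mt-CFX, 5.86 with CFX and 5.76 with DMSO. DEPTOR, an inhibitory subunit of mTORC1 and mTORC2, was next with a difference of 0.44 log2, from values of 4.14 with Mt-CFX, 3.87 with CFX and 3.70 with DMSO. The CFX and DMSO values of DEPTOR were below the floor, which makes the size uncertain. GRB10, an adaptor that dampens insulin signalling, was at 0.09. ITFG2 of the KICSTOR complex, at −0.11, and SESN3 were the lower ones. With CFX against DMSO 4 of the 17 were higher, 1 was lower and 12 were equal, DEPTOR being highest at 0.16 log2, and 25.8% of all genes were higher, 15% lower and 59.2% equal.

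The direct partners named above had equal or nearly equal values. Of the probe sets equal on all 3 arrays, 95.5% shared their Mt-CFX value with another probe set. Whether the equal values below show equal amounts of transcript was not tested. TSC1 and TSC2, the core of the TSC complex through which REDD1 acts, were equal on the 3 arrays at 7.17 and 6.38, and RHEB differed by 0.04 log2 between Mt-CFX and DMSO. The kinase gene MTOR was equal at 7.14, as was AKT1S1, the gene for the mTORC1 inhibitor PRAS40, at 5.74. Of the 9 measured genes of GATOR1, GATOR2 and KICSTOR, the machinery on which sestrin-2 acts, 1 was higher with Mt-CFX than with DMSO, 1 was lower and 7 were equal. SEH1L, a GATOR2 subunit shared with the nuclear pore, was the higher one at 0.08 log2, and DEPDC5, NPRL2 and NPRL3, which form GATOR1, were all equal. Of 9 Rag, Ragulator and folliculin genes 0 were higher and 3 were lower, with FNIP2 at −0.10, RRAGA at −0.07 and LAMTOR5 at −0.01. In the other 6 the Mt-CFX value did not differ from the DMSO value. For both groups of 9 genes the background is all genes compared. Of those, 52.9% showed no difference of Mt-CFX from DMSO, 23.9% a positive one and 23.2% a negative one. Among amino acid sensors LARS1, the leucyl-tRNA synthetase gene, was at 0.18 log2 with Mt-CFX and 0.20 with CFX, SAR1B was at 0.00 and 0.07, and the arginine sensor gene CASTOR1 was equal on the 3 arrays. STK11, the gene for the AMPK-activating kinase LKB1, was equal as well, and the genes of the AMPK subunits, RPTOR, RICTOR and MLST8 were not analysed here.

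**Figure D2:**
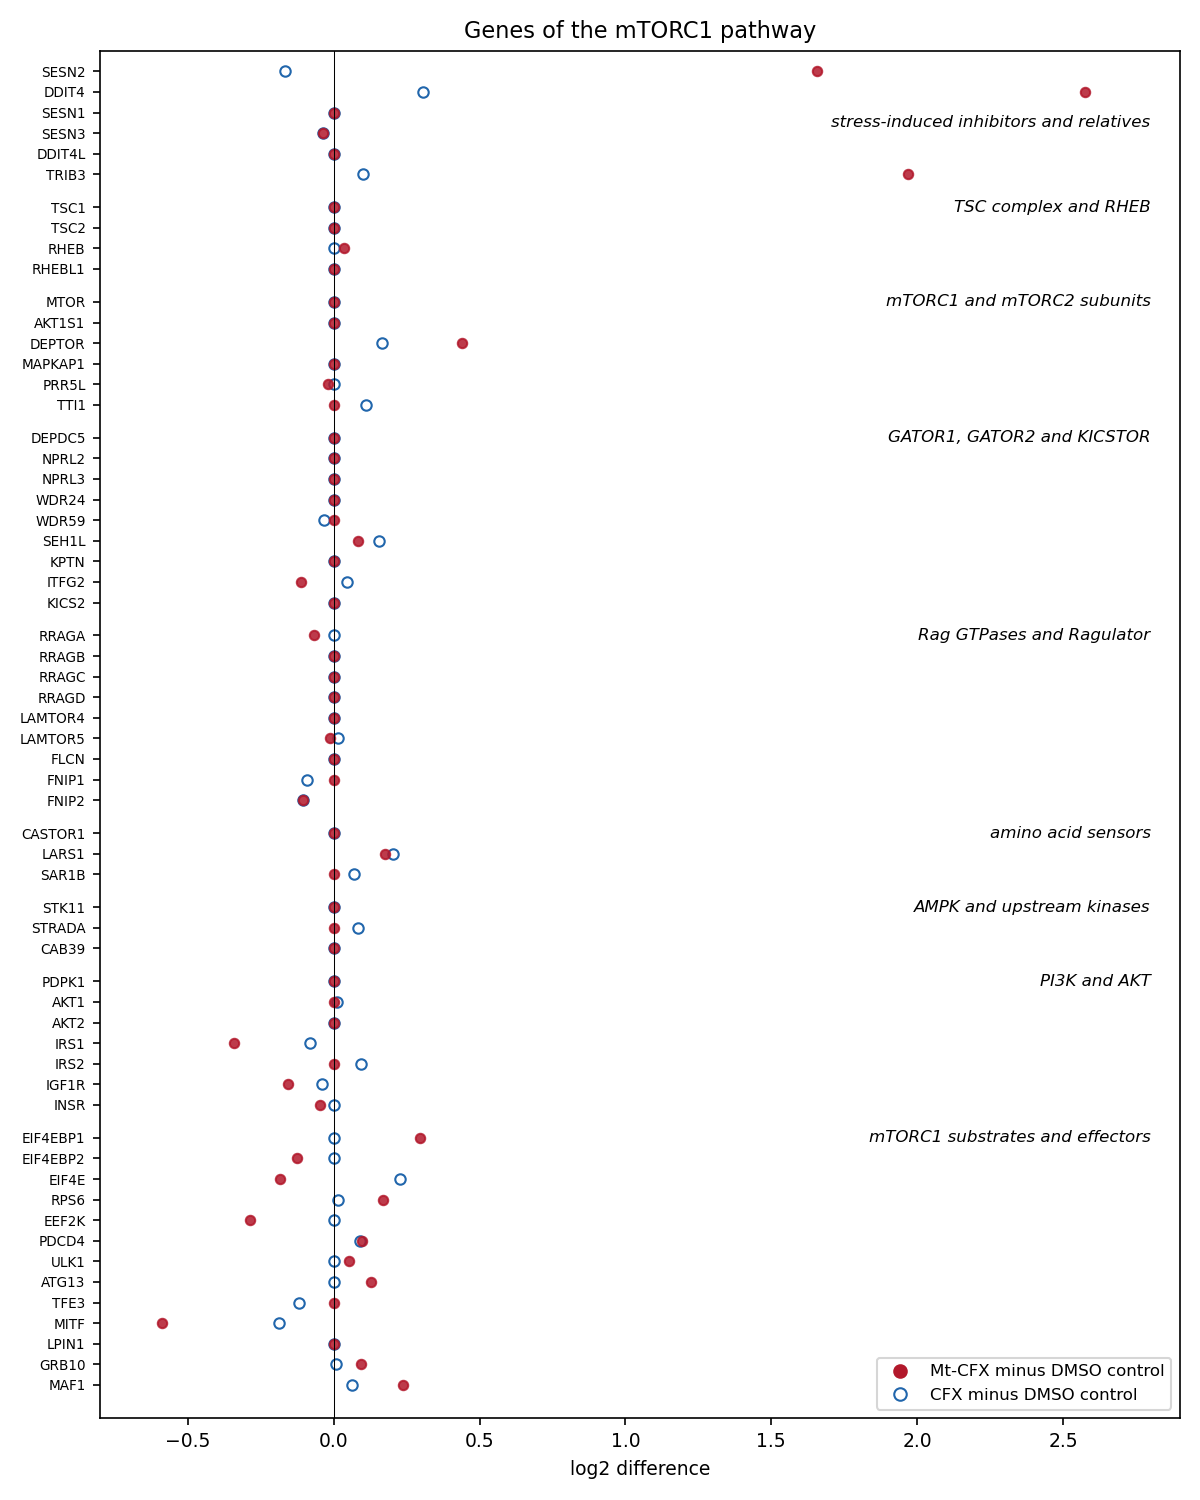
Log2 differences from DMSO (x axis) of mTORC1 pathway genes above the floor (y axis, grouped by complex), filled for Mt-CFX and open for CFX, 1 array per condition. SESN2, DDIT4 and TRIB3 lie far to the right with Mt-CFX. MITF, at −0.59 log2 from a Mt-CFX value close to the floor, is the farthest to the left.

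Upstream of the TSC complex, 7 genes of insulin receptor, PI3K and AKT signalling were compared, of which 0 were higher with Mt-CFX than with DMSO, 3 were lower and 4 were equal. Over all genes compared 23.9% were higher, 23.2% lower and 52.9% equal, which also applies to the substrates and effectors below. IRS1, an adaptor of the insulin and IGF receptors, was at −0.34 log2 with Mt-CFX and −0.08 with CFX. IGF1R was at −0.16 with Mt-CFX and −0.04 with CFX, and INSR at −0.05 with Mt-CFX and 0.00 with CFX. Downstream, 13 mTORC1 substrates and effectors were compared, with 7 higher, 4 lower and 2 equal, the median being 0.05 and the mean −0.0087 log2. EIF4EBP1, the translation repressor gene 4E-BP1 whose product mTORC1 inactivates, stood at 7.63 with Mt-CFX, 7.34 with CFX and 7.34 with DMSO, a difference of 0.30 for Mt-CFX. MAF1, a repressor of RNA polymerase III, was at 0.24 and the ribosomal protein gene RPS6 at 0.17. MITF, a lysosome and lineage transcription factor gene, was lowest, at 4.31 with Mt-CFX, 4.71 with CFX and 4.90 with DMSO, a difference of −0.59. The Mt-CFX value of MITF lay close to the floor, which makes the size uncertain. EEF2K, the kinase that slows translation elongation, was at −0.29 and the cap-binding protein gene EIF4E at −0.18 with Mt-CFX and 0.23 with CFX. RPS6KB1, the S6 kinase gene, was not analysed here. These are transcript levels, and phosphorylation, through which mTORC1 activity is read, was not measured here.

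Genes of lysosome and autophagy, which are known to be held back by mTORC1, went both ways. Of 25 compared, 9 were higher with Mt-CFX than with DMSO, 6 were lower and 10 were equal, with a median of 0.00, against shares of 23.9%, 23.2% and 52.9% over all genes. The autophagosome gene MAP1LC3B was highest at 1.36 log2, from 5.44 with Mt-CFX, 4.08 with CFX and 4.08 with DMSO. Its CFX and DMSO values lay close to the floor and were exactly those of ATF3, which makes the size uncertain. SQSTM1, an autophagy receptor gene whose product also binds sestrin-2, was at 0.84 and GABARAPL1, of the LC3 family, at 0.57. The lysosomal protease gene CTSD was lowest, at −0.45 with Mt-CFX and −0.32 with CFX.

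The transcription factors known to act on SESN2 and DDIT4 were measured in part. ATF4 stood at 8.95 with Mt-CFX, 8.36 with CFX and 8.12 with DMSO, a difference of 0.83 log2 for Mt-CFX and 0.24 for CFX. NFE2L2, the gene for NRF2, was at 7.39 with Mt-CFX, 7.02 with CFX and 6.77 with DMSO, a difference of 0.63 for Mt-CFX and 0.25 for CFX. The hypoxia-inducible factor gene EPAS1 was at 6.29 with Mt-CFX, 5.68 with CFX and 5.62 with DMSO, a difference of 0.67 for Mt-CFX, while its partner gene ARNT was equal at 7.69. All of these were highest on the Mt-CFX array except ARNT. ATF3, a stress-induced factor gene of the ATF family, was at 0.69, from CFX and DMSO values of 4.08 that lay close to the floor. DDIT3, the gene for CHOP, was at 1.69, although its CFX and DMSO values of 3.06 were below the floor. FOXO3 was equal with Mt-CFX and DMSO and at −0.13 with CFX. The kinase genes EIF2AK3 and EIF2AK4, which start the integrated stress response, and DELE1 and OMA1, which relay mitochondrial stress to it, were equal on the 3 arrays. The related kinase gene EIF2AK1 was at −0.01 with Mt-CFX and 0.01 with CFX, and EIF2AK2 at 0.07 with either compound. HIF1A and NR3C1 were not analysed here.

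Of 9 genes whose products are known to bind or modify the 2 proteins or act beside them, 5 were higher with Mt-CFX than with DMSO, 3 were lower and 1 was equal, with SQSTM1 and NFE2L2 highest and the peroxiredoxin gene PRDX1 lowest at −0.18. Over all genes compared 23.9% were higher, 23.2% lower and 52.9% equal.

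Other targets of these regulators were described in lists that leave out SESN2 and DDIT4. Of 18 ATF4 targets compared, 15 were higher with Mt-CFX than with DMSO, none was lower, 3 showed no difference, and 6 passed 2-fold, where 23.9% of all genes were higher, 23.2% lower and 52.9% equal, and 0.304% passed 2-fold. These shares over all genes apply to each list compared between Mt-CFX and DMSO. DDIT3, counted among the higher targets and among those past 2-fold, passed the floor through its Mt-CFX value alone. Since the lists were chosen with earlier results of these data known, the counts are a description and a cause was not tested. The median of the ATF4 list was 0.55 log2, so SESN2 at 1.66 and DDIT4 at 2.58 stood in the upper part of the list, with GDF15 at 2.82 above both. The serine synthesis genes PSAT1 and PHGDH were at 1.01 and 0.62, the asparagine synthetase gene ASNS at 1.18 and PCK2, the mitochondrial PEP carboxykinase gene, at 0.90. With CFX, 10 of the 18 were higher than with DMSO, 3 were lower and 5 were equal, with a median of 0.02. Over all genes 25.8% were higher with CFX than with DMSO, 15% lower and 59.2% equal. The highest of the list with CFX were CTH at 0.67, PCK2 at 0.45 and PSAT1 at 0.40. SHMT2, STC2 and VEGFA had values below DMSO, as SESN2 did. Of 8 NRF2 targets 3 were higher with Mt-CFX and 5 were equal, led by the thioredoxin reductase gene TXNRD1 at 1.12, SQSTM1 at 0.84 and the sulfiredoxin gene SRXN1 at 0.57.

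The other lists held no member as high as SESN2. Of 17 hypoxia targets 3 were higher and 9 lower with Mt-CFX, and 5 were equal, where 23.9% of all genes were higher, 23.2% lower and 52.9% equal, with LDHA at −0.73, the carbonic anhydrase gene CA12 at −0.63, EGLN3 at −0.23 and VEGFA at 0.26. EGLN3 was below the floor with both compounds. Of 8 glucocorticoid receptor targets 5 were higher and 3 were equal, with a median of 0.13 log2. ERRFI1, an inhibitor of the EGF receptor, was at 0.96, the metallothionein genes MT1X and MT2A at 0.40 and 0.39 and KLF9 at 0.21. Of 11 FOXO targets 3 were higher and 3 lower, and 5 were equal, with CCNG2 at 0.41, BCL6 at 0.38 and TXNIP at −0.16. Metallothionein transcripts are near-identical in sequence, and how far their probes read each other was not tested.

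**Figure D3:**
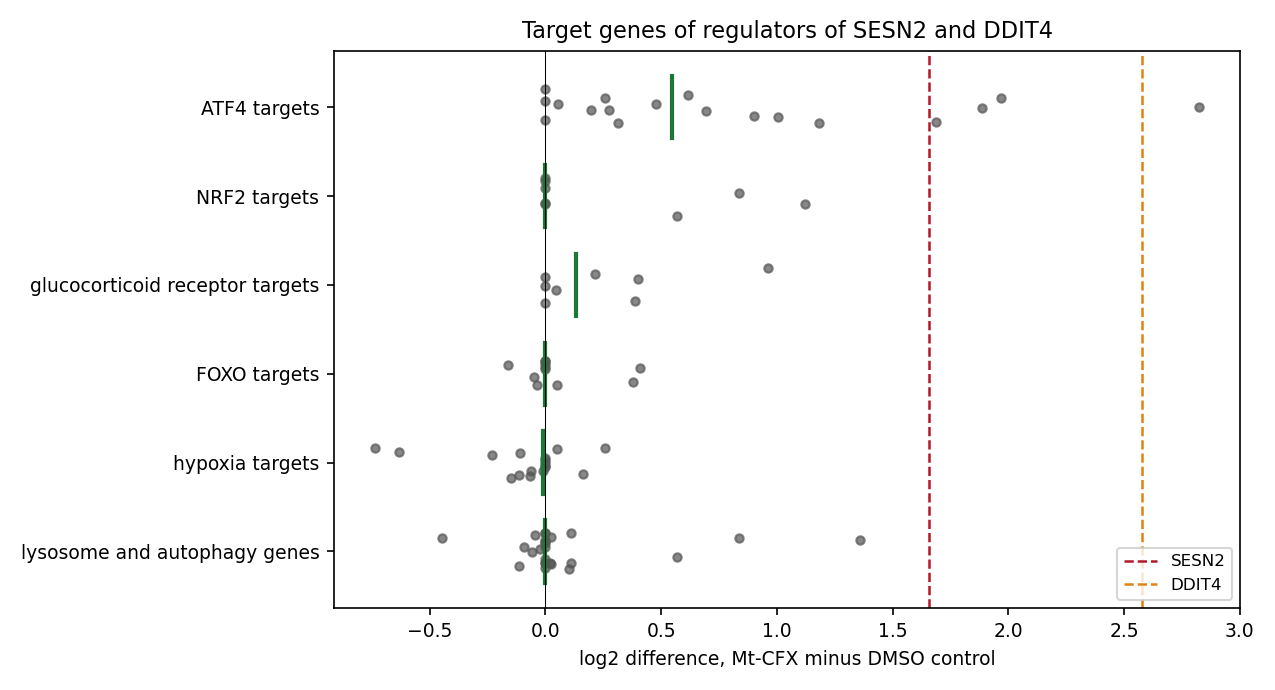
Log2 difference of Mt-CFX from DMSO (x axis) for targets of regulators of SESN2 and DDIT4 and for lysosome and autophagy genes (y axis, 1 list per row). Points are genes above the floor, spread vertically for view, green bars are medians, and dashed lines mark SESN2 (1.66) and DDIT4 (2.58); the points beyond the SESN2 line belong to the ATF4 list.

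The genes whose pattern lay nearest to each member were sought by the Euclidean distance between pairs of differences from DMSO, 1 for CFX and 1 for Mt-CFX, which rests on 3 arrays and a shared control. Nearest to SESN2 was DDIT3, at a distance of 0.17 log2, although DDIT3 passed the floor through its Mt-CFX value alone, which leaves its difference and this place uncertain. Next came STK32A at 0.25, MAP1LC3B at 0.34, EID3 at 0.37, SEL1L3 at 0.38, TRIB3 at 0.41, GFPT1 at 0.43 and TMEM154 at 0.45. STK32A was the most similar in the sign of both differences, at 1.41 with Mt-CFX and −0.13 with CFX, from 6.17 with Mt-CFX, 4.64 with CFX and 4.76 with DMSO. EID3 followed, at 1.31 with Mt-CFX and −0.06 with CFX. DDIT3, MAP1LC3B and TMEM154 had equal values with CFX and DMSO. Those of MAP1LC3B lay close to the floor, at 4.08, which leaves its place uncertain too.

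Nearest to DDIT4 was GDF15, at a distance of 0.25 log2, with 2.82 for Mt-CFX and 0.32 for CFX. GDF15 stood at 8.33 with Mt-CFX, 5.83 with CFX and 5.51 with DMSO, the same order of conditions as in DDIT4. EGR1 followed at a distance of 0.57, SLFN5 at 0.61, TRIB3 at 0.64, ANKFN1 at 0.70, CTH at 0.78, KDM7A at 0.82 and DDIT3 at 0.94. SESN2 itself was next in the DDIT4 order, at 1.03 and place 9, whereas DDIT4 came at place 91 in the SESN2 order. TRIB3 was among the 8 nearest genes of both members, as was DDIT3, with the uncertainty just given.

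**Figure D4:**
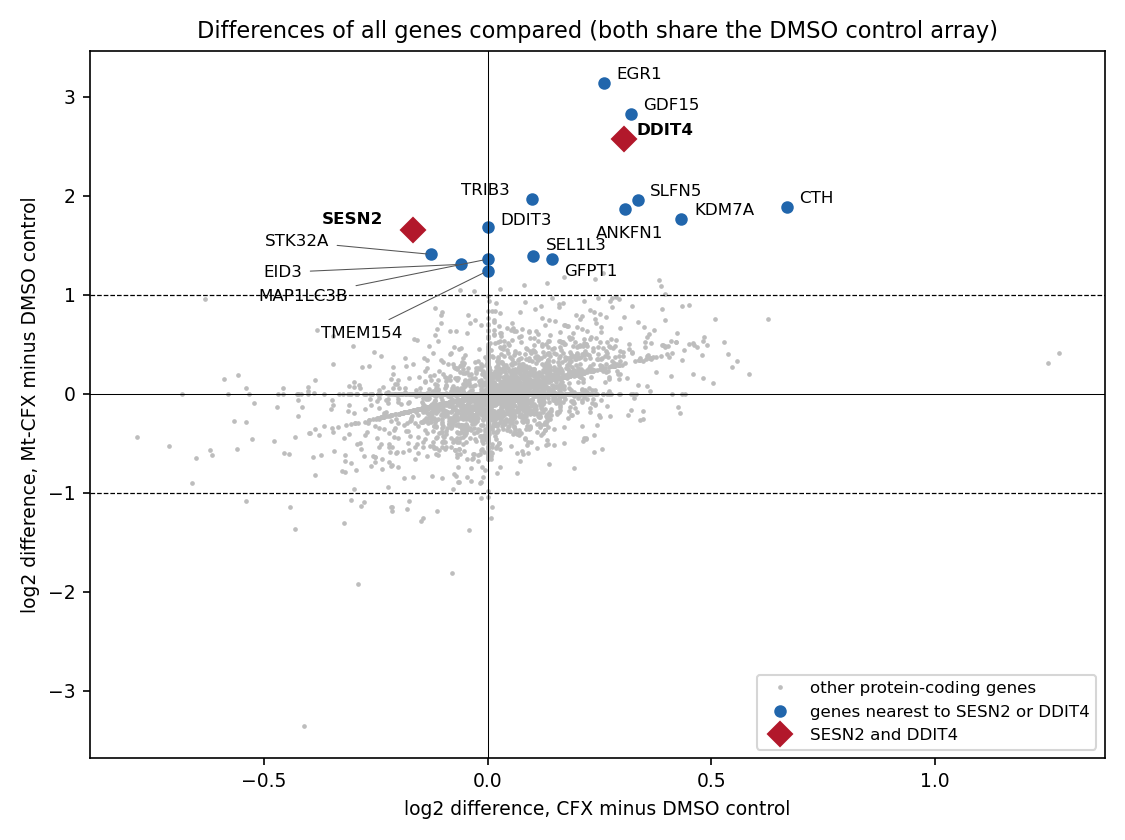
Log2 difference of Mt-CFX from DMSO (y axis) against that of CFX from DMSO (x axis) for 8868 protein-coding genes, 1 point per gene; both axes use the same DMSO array. DDIT4 lies beside GDF15 at the upper right and SESN2 to the left of 0 on the CFX axis, and dashed lines mark 2-fold.

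Genes that flank the members on the chromosome were also compared. On chromosome 1, the nearest named protein-coding genes before SESN2 in RefSeq order were PTAFR and ATP5IF1, which were equal on the 3 arrays. After it came MED18, at 0.15 log2 with either compound, and PHACTR4, at −0.0086 with Mt-CFX and 0.00 with CFX. On chromosome 10, ASCC1 before DDIT4 was at 0.02 with Mt-CFX and 0.16 with CFX. ANAPC16, the gene next to DDIT4 on that side and a subunit of the anaphase-promoting complex, stood at 7.22 with Mt-CFX, 7.13 with CFX and 6.73 with DMSO. Its difference of 0.49 for Mt-CFX was smaller than that of DDIT4, and its difference of 0.40 for CFX was larger. After DDIT4 came MCU, the mitochondrial calcium uniporter gene, equal at 7.20, and OIT3, equal and below the floor.

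**Figure D5:**
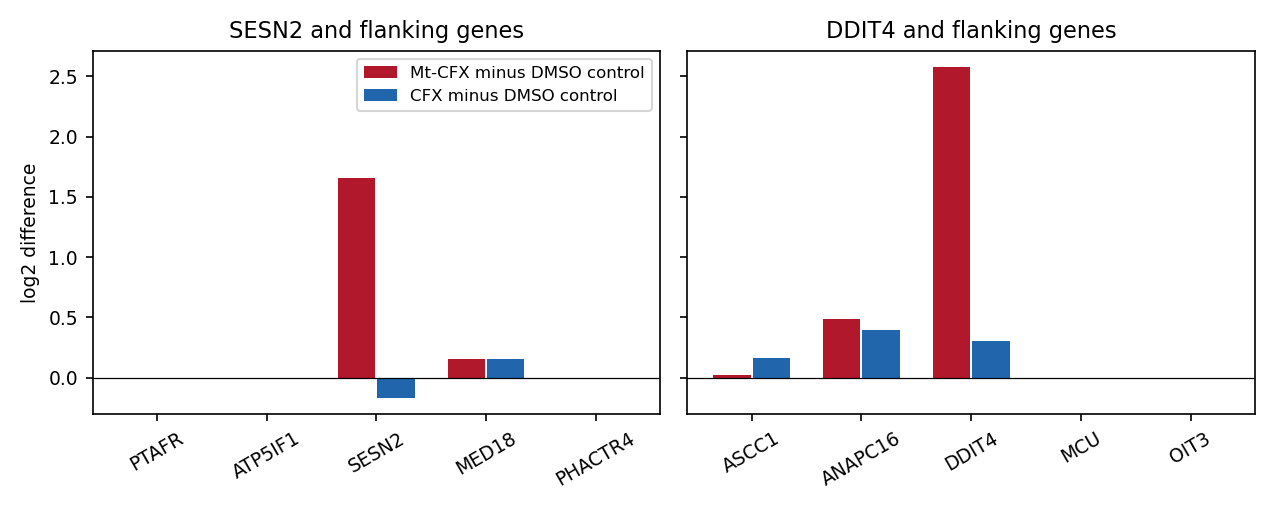
Log2 differences from DMSO (y axis) for Mt-CFX (red) and CFX (blue) of SESN2 and DDIT4 and of the 2 nearest named protein-coding genes on each side (x axis, in RefSeq order), 1 array per condition. The Mt-CFX bars of SESN2 (1.66) and DDIT4 (2.58) stand above those of their neighbours, of which ANAPC16 is the tallest at 0.49.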

How the data were processed

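Total RNA was hybridised to 1 whole-transcript array per condition. The deposited files hold log2 values for each probe set. The submitters' processing notes name RMA and Affymetrix Expression Console. The version, annotation release and build were not given in the sources used here. The distributions of the arrays were close but not identical, with medians of 3.88 to 3.91 log2 and a widest gap of 0.245 log2 between equally ranked values. Depth has no meaning for arrays, and their number limits the precision.

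The platform annotation gave a symbol to 16098 of 53617 probe sets. Several probe sets of a gene were represented by the one with the highest mean. Differences of log2 values were taken, genes were counted at 2-fold, and no test was made. Counting was tested on simulated data. Promoter sequences came from RefSeq, GRCh38.p14. The members, gene lists and naming rule were chosen with earlier results of these data known. The genes named were both members and their relatives, up to 4 members of each list with the widest difference for Mt-CFX or any past 1.5-fold, preset pathway genes and regulators, the 8 nearest genes by pattern and 2 flanking genes per side. A list of 19 amino acid transporter genes had 0 named probe sets and was not analysed here. One regulator and the list of its targets are not reported here. Alternatives were other floors, centring, a lowess curve with a span of 0.3, the mean of probe sets, genes of every type, 1.5-fold and list means. Python 3.11.15, numpy 2.4.6, pandas 2.3.3, statsmodels 0.14.6 and matplotlib 3.10.9 were used.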

Additional observations from a re-analysis of the deposited data

How the results depend on the processing

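With 1 array per condition no replicate could be left out. No paired analysis was possible because each group has 1 sample. Under median centring, lowess re-centring and the mean of all probe sets, the 3 differences of SESN2 stayed within 1.66 to 1.68 (Mt-CFX minus DMSO), −0.17 to −0.16 (CFX minus DMSO) and 1.82 to 1.84 log2 (Mt-CFX minus CFX), and those of DDIT4 within 2.58 to 2.60, 0.30 to 0.32 and 2.27 to 2.28. SESN2 and DDIT4 have 1 probe set each, so the mean of probe sets is the value itself, and median centring moves all genes of an array alike. Lowess re-centring left the Mt-CFX minus DMSO differences at 1.66 and 2.58. The narrow ranges thus follow largely from the settings and say nothing of the spread of repeats. With a floor at the 75th percentile, the rank from the highest in CFX minus DMSO was 5364 for SESN2, against 8592, and 48 for DDIT4, against 97, and over genes of every type the DDIT4 rank was 148. At 1.5-fold, 129 genes were higher and 111 lower with Mt-CFX than with DMSO, 4 higher and 9 lower with CFX than with DMSO, and 100 higher and 91 lower with Mt-CFX than with CFX. The 2 genes 2-fold higher with CFX became 0 with a floor on the mean or at the 75th percentile, and 1 gene was 2-fold lower with no floor. Taking the mean in place of the median gave 0.35 for Mt-CFX minus DMSO and 0.32 for Mt-CFX minus CFX over the genes that restrain mTORC1, members included, where the medians were 0.00. Over mTORC1 substrates and effectors the means were −0.0087 for Mt-CFX minus DMSO and −0.016 for Mt-CFX minus CFX, where the medians were 0.05. The other 83 alternatives moved values by under 0.1 log2, or counts and ranks by at most 1.5 times.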

Other observations

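Many probe sets carried exactly the same value as another probe set of their array. This bears on DDIT4, the relatives and the pathway, target and marker genes above. With DMSO, for example, EEF2K had exactly the value of SQSTM1, and VEGFA that of NPRL3. How far the differences of such genes show amounts of transcript was not tested. On the Mt-CFX array 67.8% of the 53617 probe sets shared their value to all deposited decimals with at least 1 other, on the CFX array 68.9% and on the DMSO array 67.8%. Among the 26540 probe sets equal on all 3 arrays these shares were 95.5% with Mt-CFX, 95.7% with CFX and 95.6% with DMSO. Among the 27077 probe sets that were not equal they were 40.7% with Mt-CFX, 42.6% with CFX and 40.7% with DMSO. DDIT4L and SESN1 belonged to the equal probe sets with shared values, and SESN2 to the others, with a value of its own on each array. DDIT4 was also among those not equal, but 17 other probe sets shared its value on the CFX array and 2 on the Mt-CFX array. Its differences of CFX and of Mt-CFX from DMSO therefore each rest in part on a shared value. That of Mt-CFX from CFX rests on shared values on both sides.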
